A study of Rattus norvegicus with 18 samples.

Results

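Acta2, Tagln and Des, 3 genes of the contractile apparatus of smooth muscle, were followed through the 18 libraries of a study of bowel tissue in Sprague-Dawley rats, which are outbred. The genes were chosen by their Ensembl IDs, as a readout of how much muscle wall a library holds, and are 3 of the 30562 genes in the count table. All 3 passed the filter on low counts, which kept 16593 genes. The labels give 3 groups of 6 libraries, all of wild type genotype. One group was given X-rays at 10 Gy, in one dose, followed by Changbing Formula, a treatment that the labels name without its contents or dose. A second group received the same 10 Gy and no formula, and the control group received neither. The labels name the tissue as intestine, without a segment or layer, and give no sex, age or time after irradiation.

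Smooth muscle forms the outer muscle coat of the bowel, the thin muscle sheet under the mucosa and the walls of its vessels. Acta2 encodes smooth muscle alpha-actin, a thin filament actin, which vascular muscle, pericytes and myofibroblasts also make. Tagln encodes transgelin (SM22), an actin-binding protein of smooth muscle. Des encodes desmin, the intermediate filament protein that links contractile units in smooth and striated muscle. In bulk tissue, fewer muscle cells and less of these RNAs per cell cannot be told apart.

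On mRatBN7.2, the build of the counts, Acta2 (ENSRNOG00000058039) lay on the reverse strand of chromosome 1 from 231746548 to 231759554. Tagln (ENSRNOG00000017628) lay on the reverse strand of chromosome 8 from 46222472 to 46230668, and Des (ENSRNOG00000019810) on the forward strand of chromosome 9 from 76850982 to 76858699. RefSeq places genes of these symbols on the same chromosomes, in GRCr8, a later build. The RefSeq gene spans 12781 bases for Acta2, against 13007 in the count table, 5475 against 8197 for Tagln, and 7719 against 7718 for Des. No exon of the 3 genes overlapped an exon of another annotated gene. Other actin genes are similar to Acta2 in coding sequence, so its count is uncertain to the extent that reads were placed on one of these in place of another.

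Smooth muscle genes are known to be switched on by serum response factor with its coactivator myocardin, through CArG boxes, short elements with an A/T-rich core between CC and GG. The upstream sequence of the 2 genes with an entry in the RefSeq promoter table is shown as a description. Its part in the levels of these libraries was not tested. Each line holds the 250 bases before the annotated start, 5′ to 3′ on the gene's own strand, with capitals for CArG boxes with at most 1 base outside A and T in the core and for the E-box CAGCTG. The Acta2 window is chr1:241172504-241172753 (reverse strand) and the Des window chr9:84299376-84299625 (forward strand), both in GRCr8.
Acta2: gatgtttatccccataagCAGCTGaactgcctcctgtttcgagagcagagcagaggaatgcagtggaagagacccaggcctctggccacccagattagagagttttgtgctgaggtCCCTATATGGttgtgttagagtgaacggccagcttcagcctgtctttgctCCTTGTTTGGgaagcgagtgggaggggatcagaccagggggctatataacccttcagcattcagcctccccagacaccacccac
Des: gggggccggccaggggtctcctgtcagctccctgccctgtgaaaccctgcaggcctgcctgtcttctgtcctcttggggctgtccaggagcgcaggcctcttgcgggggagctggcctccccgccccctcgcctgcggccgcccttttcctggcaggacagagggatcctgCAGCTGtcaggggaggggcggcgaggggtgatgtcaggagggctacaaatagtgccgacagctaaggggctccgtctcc
In the Acta2 window a script found CCCTATATGG, from 134 to 125 bases before the start, and CCTTGTTTGG, from 84 to 75 bases before it, each with 1 mismatch in the core. The Des window held no such match, and each window held 1 CAGCTG. Both strands were searched and the matches do not overlap. Of 33469 RefSeq promoters of the same length, 8.08% held a CArG box with at most 1 mismatch, 1.5% held one without a mismatch, and 12.0% held CAGCTG. These matches describe letters and are not evidence of binding.

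The 3 genes were among the most abundant in the tissue. By mean CPM (counts scaled to the library total and by TMM factors) Tagln ranked 15, Des 22 and Acta2 48 among 16593 genes. Together they took from 0.0750% to 1.43% of all counts in a library. Per length, in CPM per kilobase of exon, Tagln stood highest of the 3 in every group. Its mean was 3234 ± 1991 per kilobase in irradiated plus formula, 1678 ± 1043 in irradiated and 3158 ± 2198 in control libraries (SD, n = 6). For Acta2 it was 1062 ± 633 per kilobase in irradiated plus formula, 553 ± 277 in irradiated and 922 ± 644 in control libraries (SD, n = 6). Des averaged 994 ± 572 per kilobase in irradiated plus formula, 443 ± 221 in irradiated and 632 ± 478 in control libraries (SD, n = 6).

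Library totals lay between 33598572 and 48398184 counts. Irradiated 4 and control 2 stood apart from the other 16 libraries on the first principal component of all tested genes, which held 40.2% of the variance: their scores were 216 in irradiated 4 and 176 in control 2, against -52.9 to 34.2 in the others. They also had the lowest shares of mitochondrial counts, 5.77% in irradiated 4 and 9.30% in control 2, where the others had 12.8% to 39.7%. The labels do not say that each library is a separate animal, so the spread between libraries may be in part technical.

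Acta2 differed more within groups than between them. It lay between 909.9 and 3388 CPM in irradiated plus formula libraries, with a median of 1189. In irradiated libraries it lay between 169.6 and 1479 CPM, with a median of 969. In control libraries it lay between 115 and 2989 CPM, with a median of 1509.6. All 3 groups overlapped, and the lowest 2 values of the 18 were those of control 2 and irradiated 4.

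Tagln lay between 2023 and 7699 CPM in irradiated plus formula libraries, with a median of 2788. The irradiated libraries held 511 to 4202 CPM, with a median of 1812. The control libraries held 286 to 7641 CPM, with a median of 4193. Irradiated plus formula 6, control 6 and irradiated plus formula 2 had the highest values, at 7699, 7641 and 7049 CPM, and these 3 libraries also led for Acta2 and Des.

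Des lay between 1579 and 5803 CPM in irradiated plus formula libraries, with a median of 2502. In irradiated libraries the range was 315 to 2390.0 CPM, with a median of 1616. In control libraries it was 229 to 4305 CPM, with a median of 1938. Control 2 was the lowest of all 18 libraries for each of the 3 genes and irradiated 4 the second lowest.

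**Figure D1:**
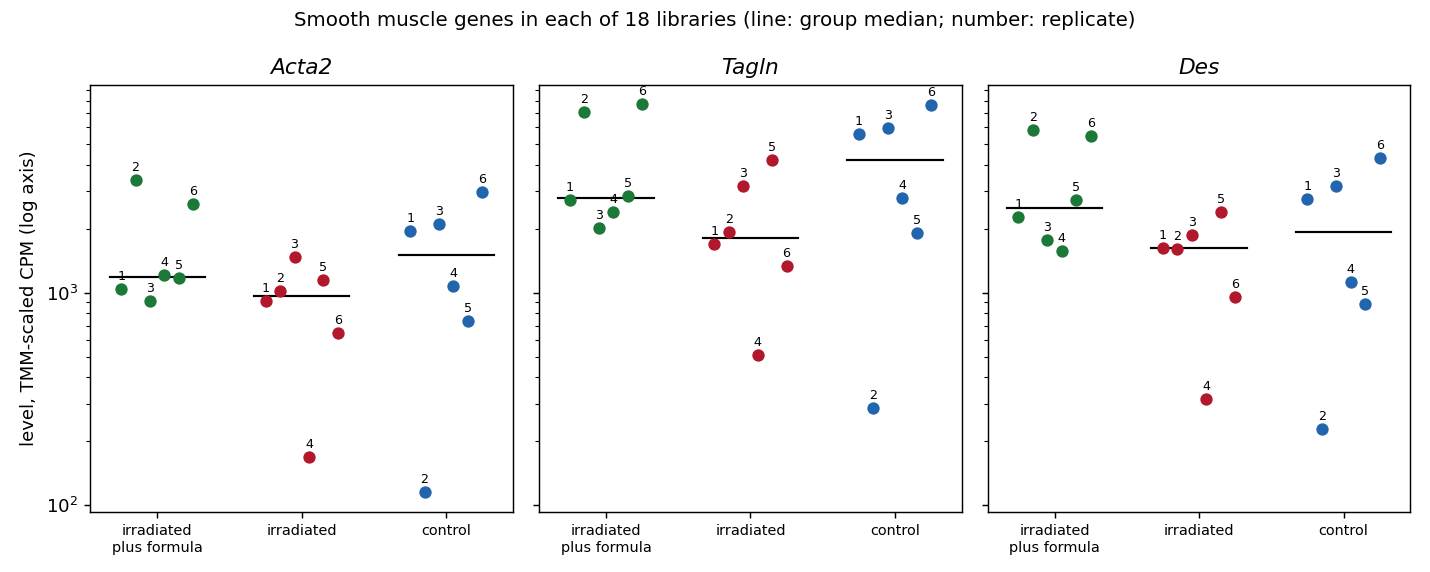
Level of each gene in TMM-scaled CPM on a log axis, 1 point per library, numbered by replicate, with the group median as a line. Control 2 and irradiated 4 lie below all other libraries in each panel, while irradiated plus formula 2 and 6 and control 6 lie at the top.

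From the lowest to the highest library, the fold was 29.4 for Acta2, 26.9 for Tagln and 25.3 for Des. Without control 2 and irradiated 4 it was still 5.24, 5.75 and 6.59. The SD of log2 CPM over 18 libraries was 1.26 for Acta2, 1.28 for Tagln and 1.24 for Des, and its median was 0.43 over the 9565 genes whose mean reached 10 CPM. Of those genes, 92.0%, 92.3% and 91.7% had a smaller SD than Acta2, Tagln and Des. In the 16 remaining libraries the SDs were 0.72, 0.83 and 0.82, against a median of 0.34. Group membership held 11.6% of the variance in log2 CPM for Acta2, 11.4% for Tagln and 19.2% for Des, and a median of 9.03% over the same genes.

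The spread in irradiated and control libraries rested largely on irradiated 4 and control 2. On the log2 scale the SD of Acta2 was 0.78 in irradiated plus formula, 1.12 in irradiated and 1.70 in control libraries (n = 6). For Tagln it was 0.83 with the formula, 1.06 in irradiated and 1.76 in control libraries, and for Des 0.81 with the formula, 1.06 in irradiated and 1.57 in control libraries. Without irradiated 4 and control 2 the SD was 0.44 for Acta2, 0.68 for Tagln and 0.48 for Des in 5 irradiated libraries, and 0.81 for Acta2, 0.84 for Tagln and 0.99 for Des in 5 control libraries. The differences in spread were not tested.

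The first comparison asked what irradiation did to the muscle genes. All 3 had a lower mean in irradiated than in control libraries, and none passed the test. Acta2 averaged 896 ± 449 CPM after irradiation, against 1494 ± 1044 CPM in control (SD, n = 6 each), a log2 fold change of -0.74 with an SE of 0.59 and an edgeR adjusted p of 0.998. For Tagln the means were 2141 ± 1331 CPM after irradiation and 4029 ± 2805 CPM in control (SD, n = 6 each), and the log2 fold change was -0.91 with an SE of 0.62 and an edgeR adjusted p of 0.998. For Des they were 1459.9 ± 727 CPM after irradiation, with 2079.8 ± 1574 CPM in control (SD, n = 6 each), and the log2 fold change was -0.51 with an SE of 0.59 and an edgeR adjusted p of 0.998. The 95% interval of the fold, irradiated over control, ran from 0.252 to 1.43 for Acta2, from 0.214 to 1.32 for Tagln and from 0.298 to 1.65 for Des. In all, 0 of 16593 genes (0%) passed, with 321 (1.93%) at an unadjusted p below 0.05 and 0 calls in DESeq2 and in limma-voom. That unadjusted count was 2130 genes without control 2, 1314 without irradiated 4 and control 2, 503 without irradiated 4, 160 without control 3, 435 in DESeq2 and 1818 in limma-voom. Unadjusted, p was 0.230 for Acta2, 0.160 for Tagln and 0.397 for Des in edgeR. For Tagln it was 0.041 without control 2, with an adjusted p of 0.390 in edgeR, and in limma-voom it was 0.041 for Acta2 and 0.021 for Tagln, with adjusted p of 0.446 and 0.434. Without control 6 the log2 fold change was -0.42 for Acta2 and -0.16 for Des, and without irradiated 4 that of Des was -0.30.

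The second comparison asked what the formula did in irradiated rats. The 3 genes had higher means with the formula, and again none passed. Acta2 averaged 1722 ± 1026 CPM in irradiated plus formula libraries, against 896 ± 449 CPM in irradiated ones (SD, n = 6 each), a log2 fold change of 0.94 with an SE of 0.60 and an edgeR adjusted p of 0.770. Tagln averaged 4126 ± 2540.5 CPM in the formula group, against 2141 ± 1331 CPM in irradiated libraries (SD, n = 6 each), a log2 fold change of 0.95 with an SE of 0.62 and an edgeR adjusted p of 0.770. Des averaged 3271 ± 1882 CPM in the formula group, against 1459.9 ± 727 CPM in irradiated libraries (SD, n = 6 each), a log2 fold change of 1.16 with an SE of 0.59 and an edgeR adjusted p of 0.770. The intervals of the fold ran from 0.806 to 4.58, from 0.777 to 4.78 and from 0.942 to 5.33 for Acta2, Tagln and Des. Of the 36 pairs of a library with the formula and one without, the library with the formula was higher in 28 for Acta2, 28 for Tagln and 29 for Des. The background was 0 of 16593 genes (0%) in edgeR, 928 (5.59%) at an unadjusted p below 0.05, 8 in DESeq2 and 0 in limma-voom. In limma-voom the log2 fold change was 0.41 for Acta2, 0.47 for Tagln and 0.76 for Des, with an adjusted p of 0.884 for each. The unadjusted edgeR p was 0.131 for Acta2, 0.146 for Tagln and 0.066 for Des. For Des it was 0.033 without control 2, 0.034 in the fit of 12 libraries and 0.042 in DESeq2, with adjusted p of 0.579, 0.759 and 0.594. Without irradiated 4 it was 0.113, and without irradiated plus formula 2 it was 0.152. Log2 fold changes without irradiated 4 were 0.73, 0.74 and 0.95 for Acta2, Tagln and Des. The first and second comparisons share the irradiated libraries, so their opposite signs are not separate results.

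Irradiated plus formula libraries were last set against control. The fitted log2 fold change was 0.20 for Acta2 (SE 0.59, edgeR adjusted p = 0.965), 0.03 for Tagln (SE 0.62, edgeR adjusted p = 0.997) and 0.65 for Des (SE 0.59, edgeR adjusted p = 0.891). The sign was not stable for Acta2, which stood at -0.04 without control 2 and -0.11 without irradiated plus formula 2. Nor was it for Tagln, which stood at -0.21 without control 2, -0.05 without control 4, -0.08 without control 5, and at -0.19 and -0.24 without irradiated plus formula 2 and 6. In limma-voom with quality weights, which gives control 2 and irradiated 4 the lowest weights of the 18 libraries, Acta2 stood at -0.49, Tagln at -0.66 and Des at 0.05. The intervals of the fold ran from 0.487 to 2.73, from 0.416 to 2.52 and from 0.666 to 3.71 for Acta2, Tagln and Des. Here 2 of 16593 genes (0.0121%) passed in edgeR and 948 (5.71%) had an unadjusted p below 0.05, a number that was 1606 without irradiated 4 and control 2, and none of Acta2, Tagln and Des was among the 2 or the 948. By group mean, all 3 genes ran from irradiated plus formula down to control and then to irradiated, and no neighbours in that order differed beyond their spread. By median, control stood above irradiated plus formula for Acta2 (1509.6 against 1189 CPM) and Tagln (4193 against 2788 CPM). For Des it stood below (1938 against 2502 CPM).

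In each comparison the groups overlapped for all 3 genes. Of all tested genes, 0% were higher and 0.00603% lower without overlap after irradiation than in control. With the formula, 0.0783% were higher and 0.108% lower without overlap than in irradiated libraries, and 0.488% were higher and 0.344% lower than in control.

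**Figure D2:**
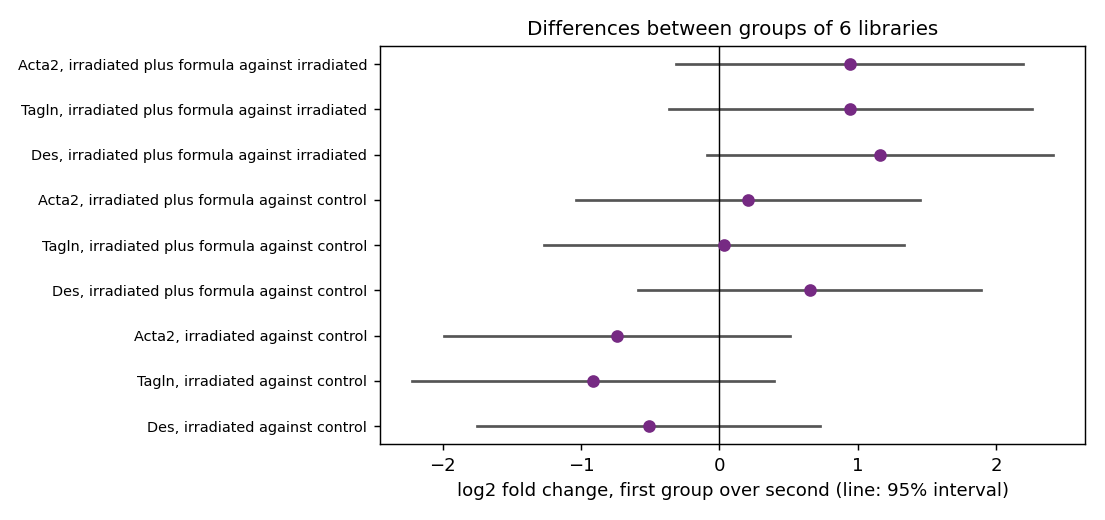
Log2 fold change of each gene in the 3 comparisons, first group named over the second, with its 95% interval from edgeR's quasi-likelihood test. All 9 intervals include 0, and that of Des for irradiated plus formula over irradiated comes closest to leaving it out, from -0.09 to 2.41.

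What the 3 genes shared was their order over libraries. Pearson r of log2 CPM over 18 libraries was 0.98 for Tagln and Acta2, 0.96 for Des and Acta2 and 0.96 for Des and Tagln, with Spearman rho of 0.95, 0.89 and 0.92. Each had a permutation p of 1e-05, the smallest that 100000 permutations can give, and an adjusted p of 1e-05 over these 3 pairs. The 2 libraries farthest from the median were control 2 and irradiated 4 for every pair, and without them r was 0.95, 0.91 and 0.89. With group means taken off, r was 0.98, 0.97 and 0.98, with control 2 and irradiated 4 still included. In the irradiated plus formula group, which holds neither, r was 0.97, 0.93 and 0.97 (n = 6), so the likeness held within that group. Within the irradiated and control groups it was not computed without these libraries.

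**Figure D3:**
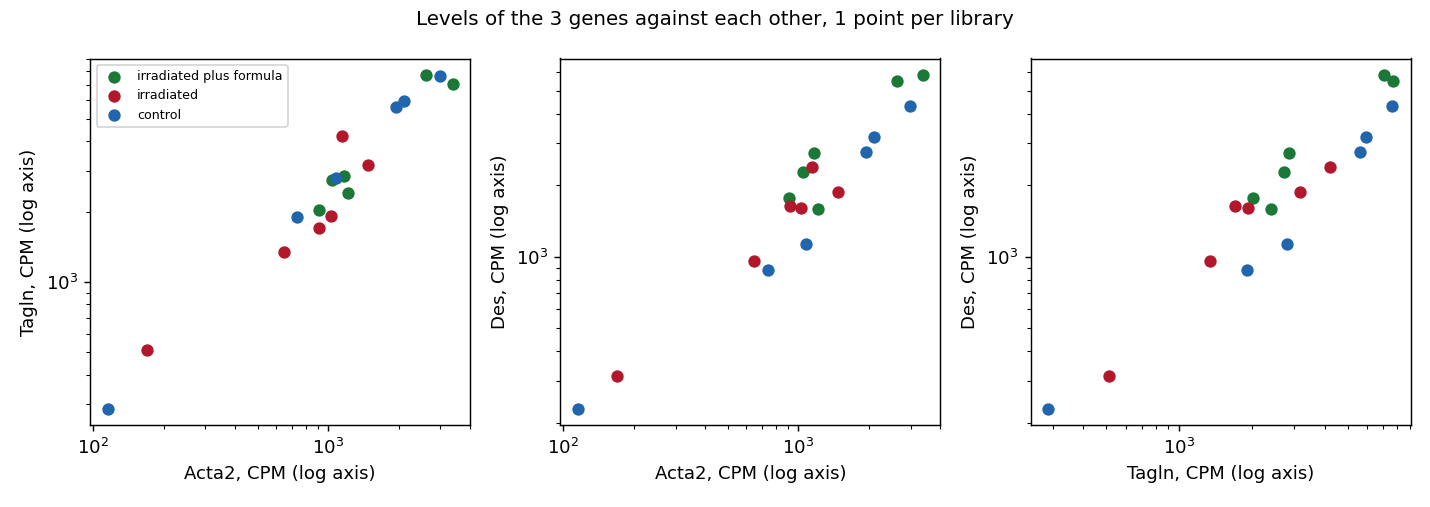
Levels of the genes against each other in CPM on log axes, 1 point per library, coloured by group. The points lie along a line in each panel, with r between 0.96 and 0.98, and the 2 points at the lower left are control 2 and irradiated 4.

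A ratio between 2 genes of the same library does not depend on how libraries are scaled, so it shows whether the genes kept their proportion. Per length there was more Tagln than Acta2 in every library. The log2 ratio of Tagln to Acta2 averaged 1.58 ± 0.21 in irradiated plus formula, 1.58 ± 0.40 in irradiated and 1.75 ± 0.09 in control libraries (SD, n = 6). The control libraries kept this ratio between 1.66 and 1.87 while their levels differed 26.0-fold for Acta2, or 4.04-fold without control 2. Both irradiated groups spread further, from 1.34 to 1.90 with the formula and from 1.24 to 2.22 without it. No difference in mean passed a two-sided exact permutation test, with adjusted p of 0.994 between irradiated plus formula and irradiated, 0.263 between irradiated plus formula and control and 0.385 between irradiated and control, over 9 tests of ratios.

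Des stood higher relative to Tagln in the irradiated groups, short of the threshold. The log2 ratio of Des to Tagln averaged -1.68 ± 0.20 in irradiated plus formula, -1.88 ± 0.30 in irradiated and -2.28 ± 0.34 in control libraries (SD, n = 6). With the formula the libraries lay between -1.98 and -1.43, in irradiated ones between -2.18 and -1.43, and in control ones between -2.67 and -1.69. As a plain ratio per length, the group means, averaged on the log scale, were 0.311 in irradiated plus formula, 0.271 in irradiated and 0.206 in control libraries. Irradiated plus formula exceeded control by 0.60 on the log2 scale (SE 0.16), higher in 34 of 36 pairs of libraries, with p = 0.0065 in a two-sided exact permutation test and an adjusted p of 0.058 over 9 tests. Irradiated exceeded control by 0.40 (SE 0.18), higher in 32 of 36 pairs (exact permutation p = 0.058, adjusted p = 0.175), and irradiated plus formula exceeded irradiated by 0.20 (SE 0.15, exact permutation p = 0.219, adjusted p = 0.314). Both comparisons with control use the same control libraries.

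The calls on this ratio depended on 1 control library. Control 2 stood at -1.69 in the ratio of Des to Tagln, and the next control library, control 6, at -2.20. Without control 2 the difference from control was 0.72 with the formula and 0.52 without it, with an exact permutation p of 0.0043 and an adjusted p of 0.019 for each. That p is the smallest that 6 against 5 libraries can give, so it does not rank the 2 differences. With irradiated 4 also left out, the differences were 0.72 and 0.56, each with an adjusted p of 0.036 in the exact permutation test. Here too each unadjusted p was the smallest that the number of libraries allows. Control 2 had the lowest level of all 3 genes, and its part in the ratio was not tested further. Over 18 libraries the ratio of Des to Tagln had a Pearson r of -0.11 with the mean log2 level of the 3 genes and -0.16 with the mitochondrial share, given as a description.

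The ratio of Des to Acta2 had the same order of groups. It shares the Des counts and the libraries with the ratio of Des to Tagln, so the same order is not a separate result. It averaged -0.10 ± 0.31 on the log2 scale in irradiated plus formula, -0.30 ± 0.26 in irradiated and -0.53 ± 0.32 in control libraries (SD, n = 6). Irradiated plus formula exceeded control by 0.43 (SE 0.18, exact permutation p = 0.043, adjusted p = 0.175), irradiated exceeded control by 0.23 (SE 0.17, exact permutation p = 0.197, adjusted p = 0.314), and irradiated plus formula exceeded irradiated by 0.20 (SE 0.16, exact permutation p = 0.245, adjusted p = 0.314). None of these passed.

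**Figure D4:**
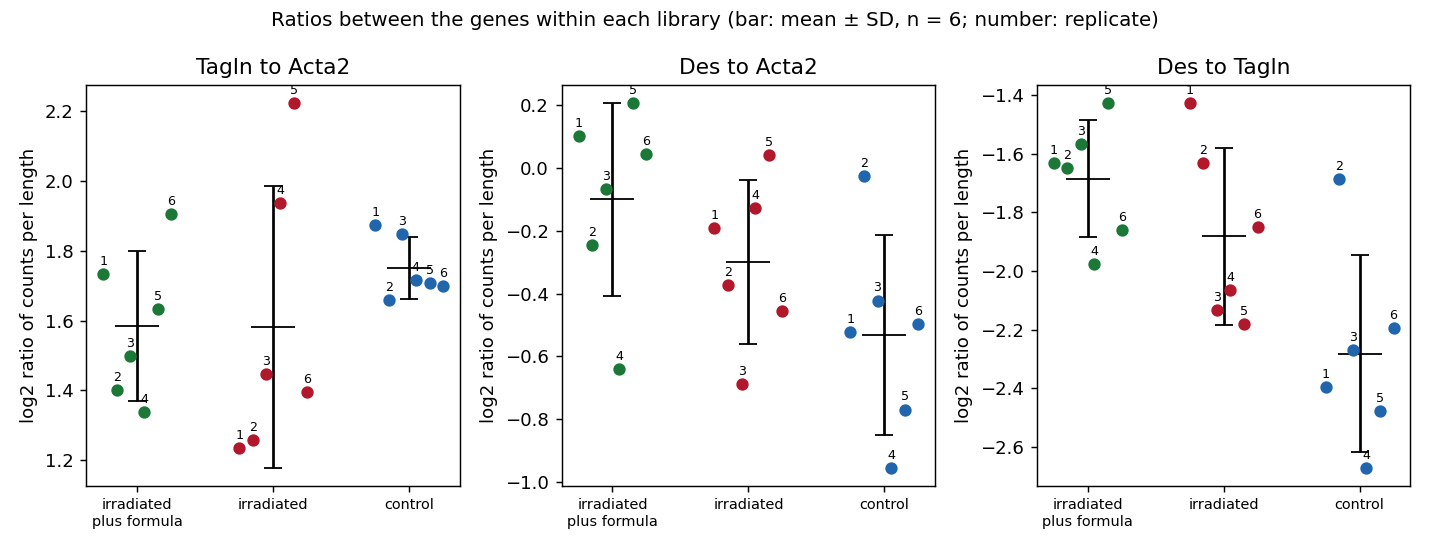
Log2 ratio of counts per length between the genes within each library, by group, numbered by replicate, with mean and SD (n = 6). In the panel of Des to Tagln 5 of 6 control libraries lie below all irradiated ones, with control 2, at -1.69, as the exception.

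Levels were higher in libraries with a larger mitochondrial share of counts, and this rested on irradiated 4 and control 2 together. Pearson r with that share was 0.57 for Acta2, 0.63 for Tagln and 0.60 for Des over 18 libraries, with permutation p of 0.018, 0.0062 and 0.0097 (adjusted p = 0.035, 0.029 and 0.029 over 6 relations). Spearman rho was 0.36, 0.52 and 0.51, with adjusted permutation p of 0.272, 0.103 and 0.103. Leaving out the 2 libraries farthest from the median share, irradiated 4 and irradiated 5, gave r of 0.60, 0.62 and 0.59. With each library left out in turn r stayed between 0.42 and 0.72 for Acta2, 0.53 and 0.72 for Tagln, and 0.47 and 0.71 for Des, lowest without irradiated 4. Without both irradiated 4 and control 2, r was 0.09, 0.30 and 0.22, with an adjusted permutation p of 0.748 for each. With the library total, r was -0.03, -0.01 and -0.17, with adjusted permutation p of 0.981, 0.981 and 0.743.

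Many other genes shared the pattern. Over 18 libraries, 224 of the other 16590 tested genes (1.35%) had a Pearson r of at least 0.9 with the mean log2 CPM of the 3 genes, and 7 (0.0422%) had one of at most -0.9. Without control 2 and irradiated 4 the numbers were 56 and 0, and 36 genes reached 0.9 both ways. Among those whose mean reached 10 CPM, the 10 most alike had r between 0.97 and 0.99 over 18 libraries and between 0.92 and 0.97 over 16. The counts come with Ensembl IDs and no symbols, and none of these IDs (0) had a match in RefSeq's gene table, so only the first 2 are named. ENSRNOG00000027736, on the forward strand of chromosome 8 from 20632338 to 20641098, had r of 0.99 and averaged 2367 CPM in irradiated plus formula libraries, 1028 CPM in irradiated ones and 1676 CPM in control. It stood at 130.1 CPM in irradiated 4 and 84.9 CPM in control 2. ENSRNOG00000015406, on the reverse strand of chromosome 1 from 222325643 to 222513437, had r of 0.98 and averaged 534 CPM in irradiated plus formula libraries, 275 CPM in irradiated ones and 389.9 CPM in control. It stood at 37.4 CPM in irradiated 4 and 24.7 CPM in control 2. These values are a description, since all of these genes come from the same libraries as the level they are compared with.

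**Figure D5:**
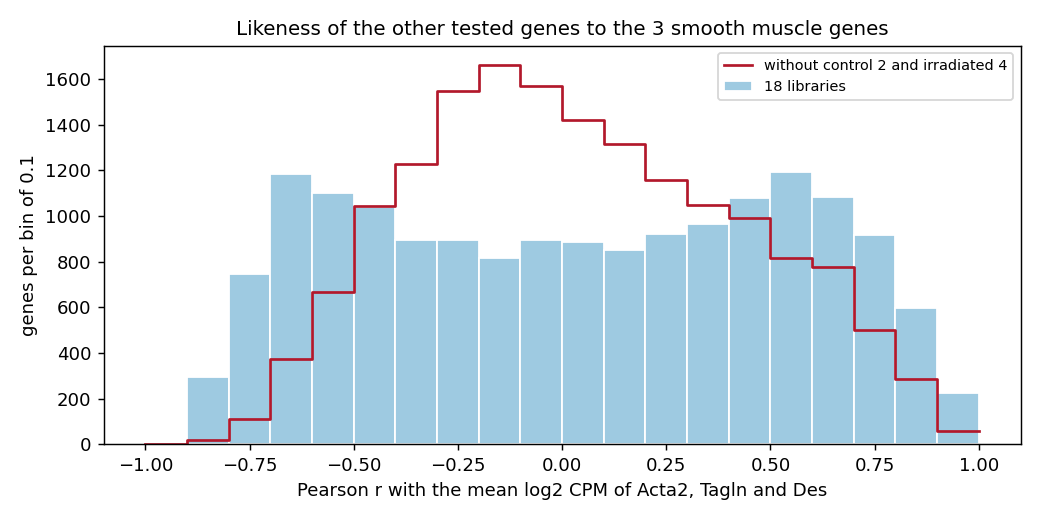
Number of the other 16590 tested genes per bin of 0.1 in Pearson r with the mean log2 CPM of Acta2, Tagln and Des, as bars for 18 libraries and as a line without control 2 and irradiated 4. With all 18 libraries 224 genes fall in the highest bin and 7 in the lowest, and without the 2 libraries 56 and 0.

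The same was counted with a test in edgeR, in a model that held the 3 groups and the log2 level of 1 gene as a covariate. With the level of Acta2, 2471 genes (14.9% of 16590) were higher where Acta2 was higher and 2797 (16.9%) were lower, at an adjusted p below 0.05. For Tagln the numbers were 2301 (13.9%) and 2638 (15.9%), and for Des 2149 (13%) and 2618 (15.8%). Without control 2 and irradiated 4, of 16564 genes, 717 (4.33%) and 238 (1.44%) followed Acta2, 781 (4.72%) and 188 (1.13%) followed Tagln, and 418 (2.52%) and 44 (0.266%) followed Des in the 2 directions. With the level of a muscle gene in the model, irradiated against control and irradiated plus formula against irradiated still called 0 genes each in edgeR. At an unadjusted p below 0.05 the first of these held 386 genes with Acta2, 330 with Tagln and 487 with Des in the model, and the second 425, 409 and 387. These covariate models were run in edgeR alone. Irradiated plus formula against control called 1 higher and 4 lower genes with Acta2, 1 and 6 with Tagln, and 1 and 7 with Des.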

How the data were processed

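The authors deposited raw gene counts of 18 libraries. They come from featureCounts 2.1.1, run on paired-end reads aligned to mRatBN7.2 and on Ensembl release 110, per the file headers. Chimeric pairs and pairs with an unaligned end were left out, and no strand or pair-counting option was set, per the file headers. The submitters' processing notes also list STAR, SAMtools, FastQC and fastp, without versions. Of the counts from 1 to below 40, 66.9% to 74.6% per library were even, so both reads of a pair were largely counted and counting error exceeds what the counts imply, though it is small at these levels. Gene lengths in the deposited table, an other kind of value, are exon bases per gene. No column of per-sample values was left unused (0 columns).

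Groups were taken from the titles. The free-text descriptions call all 18 samples untreated, against the treatment fields of 12. In R 4.3.3, filterByExpr kept 16593 genes, TMM factors were computed, and edgeR 4.0.16's quasi-likelihood test was fitted to all 18 libraries without covariates, with Benjamini-Hochberg adjustment over all genes and a threshold of 0.05. Standard errors and 95% intervals were derived from the F statistic and are approximate. Log2 CPM used a prior count of 2. Ratios used counts per length and exact permutation tests over 924 arrangements of 6 against 6 libraries, whose smallest p is 0.0022. With libraries left out there are fewer arrangements and the smallest p is larger. The fit was also run on simulated counts. Their spread was set smaller than in these data and no library was made to stand apart. That run therefore does not show how well the fit finds changes here. DESeq2 1.42.0 and limma 3.58.1 (voom with quality weights), other scalings and filters, a replicate block and left-out libraries were tried.

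The 3 genes, the lists and the 2 libraries left out together were chosen with earlier results of these data known, and the covariate fits, the correlations with the mitochondrial share without single libraries and the spread without irradiated 4 or control 2 after the data were seen. Similar genes were the 10 with the highest r among genes whose mean reached 10 CPM. Marker lists of other cell types were planned by symbol and not used, since 0 IDs matched the RefSeq table. Promoters are RefSeq sequences of GRCr8; 2 of the 3 genes matched.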

Additional observations from a re-analysis of the deposited data

How the results depend on the processing

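For the 9 fold changes, 26 alternatives each gave no adjusted p below 0.05, with a lowest of 0.321. Those of irradiated against control and irradiated plus formula against irradiated kept their sign in all of them, and so did Des for irradiated plus formula against control, with 0.41 to 1.00 when single libraries were left out. The log2 fold changes of irradiated against control ran from -0.98 to -0.42 for Acta2, -1.16 to -0.63 for Tagln and -0.75 to -0.16 for Des, lowest without control 2 and highest without control 6, and those of irradiated plus formula against irradiated from 0.41 to 1.14, 0.47 to 1.22 and 0.76 to 1.32, lowest in limma-voom. For irradiated plus formula against control, the log2 fold change of Acta2 was -0.0020 without control 2 and irradiated 4 together and -0.49 in limma-voom with quality weights, and that of Tagln was -0.17 and -0.66, and the cause was not tested. With single libraries left out the range was -0.11 to 0.53 for Acta2 and -0.24 to 0.32 for Tagln. The ratio of Tagln to Acta2, irradiated plus formula against irradiated, had a difference near 0 and changed sign without irradiated 1, 2, 3 or 6 or irradiated plus formula 1, 5 or 6, with a range of -0.067 to 0.13. For the ratio of Des to Tagln, single libraries left out gave 0.52 to 0.72 for irradiated plus formula against control and 0.31 to 0.52 for irradiated against control, past the threshold without control 2 only. With control 2 and irradiated 4 left out together these were 0.72 and 0.56. Against 2 genes called in irradiated plus formula over control, the number was 7 without those libraries, 6 in the fit of 12 libraries, 47 in DESeq2, 499 in limma-voom and 5, 7 and 8 with the level of Acta2, Tagln or Des as a covariate. It was 2 to 5 with single libraries left out, with 5 without control 2, 4 without irradiated 1 and 5 without irradiated 4. DESeq2 called 8 genes between irradiated plus formula and irradiated. The replicate block called 1 gene between irradiated plus formula and control and changed no call of the 3 genes. Under it, the difference in the ratio of Des to Tagln, irradiated plus formula against control, was 0.60. Its unadjusted p was 0.031 by exact sign flips of same-numbered pairs, the smallest that 6 pairs can give. The adjusted p of 0.141 also depends on how many of the 9 ratio tests reached that smallest p. Same-numbered libraries shared only a number: their deviations from the group means correlated between -0.51 and 0.61, above 0.1 in 5 of 18 pairs. Of 21 group checks for a library far from the other 5 of its group, 0 flagged a library, on the log2 scale for levels. They covered the levels, the ratios and the mitochondrial share. Scores on the first principal component, where control 2 and irradiated 4 stood apart, were not among them. In these checks the largest gaps to the nearest library, as a share of the group's range, fell just short of the cutoff. They were 0.62 for the mitochondrial share of control 2 and 0.618 for Acta2 in irradiated 4.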
